A study of Mus musculus with 8 samples.

Results

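The BMP and activin signalling genes described here are 10 of the 22180 genes measured. They are the pseudoreceptor gene Bambi, the ligand genes Bmp2, Bmp4, Bmp5, Bmp10 and Inhba, the activin trap Fst, and the target genes Id1, Id2 and Id3. Each was taken by its symbol in the array annotation, and each of the 10 had 1 probe set that names no other gene. RNA came from primary hepatic stellate cells of BALB/c mice, an inbred strain, and was hybridised to 8 Affymetrix arrays, 2 in each of 4 groups. Cultured cells had spent 10 days on plastic, a setting that activates stellate cells. The in vivo activated cells came from mice made fibrotic with carbon tetrachloride (CCl4), a liver toxin, for 2 or 4 weeks, and were never seeded. Quiescent cells came from healthy livers at 0 hours, also without seeding. No deletion, transgene or reporter is named for any group, and neither pooling of animals nor the source of the 2 arrays of a group (1 culture or animal, or several) is stated. A protocol given for all 8 samples speaks of valproic acid at 2.5 mM after seeding. Only the cultured cells were seeded, and the labels do not settle whether it was given to them.

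Bone morphogenetic proteins (BMPs) and activins are dimeric ligands of the TGF-beta superfamily. They bring together type I and type II receptor kinases. BMP receptors phosphorylate Smad1, Smad5 and Smad9, which induce the Id genes, whereas activin receptors phosphorylate Smad2 and Smad3. Follistatin holds activin away from its receptors, and BAMBI resembles a type I receptor but has no kinase. In the liver, BMP9 (gene Gdf2) and BMP10 are known as products of stellate cells, and BMP2 and BMP6 as products of sinusoidal endothelial cells that set hepcidin production in hepatocytes.

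Stellate cell markers and those of other liver cells differed between the groups. Des, the stellate cell intermediate filament gene, stood between 9.67 and 10.08 log2 units on all 8 arrays. Lrat, which makes retinyl esters for storage, stood at 7.21 and 5.74 in culture and at 10.95 to 11.29 on the 6 arrays of unseeded cells. Reln, which encodes a matrix glycoprotein of stellate cells, stood at 7.45 and 6.63 in culture, at 10.72 and 11.17 at 2 weeks and at 10.90 and 10.94 at 4 weeks, against 11.57 and 11.85 in quiescent cells. Acta2, the smooth muscle actin gene of activated stellate cells, stood at 12.71 and 12.69 in culture, at 11.95 and 11.92 at 2 weeks and at 11.70 and 12.18 at 4 weeks, against 6.78 and 7.24 in quiescent cells. Of 12 quiescent stellate cell markers, 11 fell in culture, 6 at 2 weeks and 8 at 4 weeks, where 10.3%, 2.43% and 4.67% of all genes fell. Leaving out 1 array gave 2 to 5 falls at 2 weeks and 3 to 8 at 4 weeks. Among 10 markers of stellate cell activation there were 7 rises and 1 fall in culture, and all 10 rose at each CCl4 time (7 to 10 when 1 array was left out).

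Over all genes, 12.9% rose and 10.3% fell in culture, 2.34% and 2.43% at 2 weeks, and 4.04% and 4.67% at 4 weeks. Of 12 measured sinusoidal endothelial markers, 11 fell in culture, 7 after 2 weeks of CCl4 and 9 after 4 weeks. The 7 falls became 0 without 2-week replicate 1, 3 without 2-week replicate 2 and 4 without quiescent replicate 1. Their summed level (log2 of the summed linear values) was 8.54 to 9.26 in culture, 11.30 to 11.63 at 2 weeks and 10.56 to 10.98 at 4 weeks, against 12.69 to 13.66 in quiescent cells. Clec4g, Kdr and Tek were at or under background on both cultured arrays. For 12 hepatocyte markers the summed level was 8.61 to 8.82 in culture, 12.82 to 13.44 at 2 weeks and 11.65 to 11.99 at 4 weeks, against 13.77 to 14.43 in quiescent cells. Alb, Fabp1, Cyp3a11, Fgb, Ahsg and Tat were at or under background on both cultured arrays. Of the 12, 11 fell in culture, 4 at 2 weeks (0 to 8 when 1 array was left out) and 11 at 4 weeks (7 to 11). Of 12 macrophage markers, 10 fell and 1 rose in culture, 1 fell and 2 rose at 2 weeks (0 to 3 falls and 0 to 2 rises when 1 array was left out), and 9 fell at 4 weeks. Their median level was 5.69 to 6.0 in culture, 7.65 to 7.76 at 2 weeks and 6.17 to 6.35 at 4 weeks, against 7.64 to 8.55 in quiescent cells. The summed level, which a few abundant genes can carry, was 11.62 to 11.76 in culture, 12.14 to 12.45 at 2 weeks and 11.10 to 11.14 at 4 weeks, against 11.85 to 12.21 in quiescent cells. Of 11 portal fibroblast and mesothelial markers, 1 rose and 5 fell in culture, 5 rose at 2 weeks and 4 at 4 weeks (2 to 5 and 2 to 4 when 1 array was left out). Of 10 vascular smooth muscle markers, 4 rose and 2 fell in culture, 4 rose and 2 fell at 2 weeks, and 6 rose and 1 fell at 4 weeks. This list shares Des and Tagln with those of stellate cells. Leaving out 1 array gave 1 to 5 smooth muscle rises and 1 fall at 2 weeks, and 3 to 7 rises at 4 weeks. The part of these other cells in the changes below was not tested, and in such bulk RNA fewer cells of a type and less RNA per cell cannot be told apart. Levels are log2 RMA values, which were quantile normalized over the arrays, so each is relative to the other arrays. As a guide to background, 95% of the values of 1394 olfactory and vomeronasal receptor genes were below 4.75; this guide was picked with the data in view.

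The ligand genes Bmp2, Bmp4 and Bmp5 were lower in all 3 activated groups than in quiescent cells, while Inhba was higher in culture and after 4 weeks of CCl4. In culture, 5 of the 10 genes fell (Bambi, Bmp2, Bmp4, Bmp5 and Id3) and 2 rose (Inhba and Fst), where 23.2% of all genes were called (12.9% higher, 10.3% lower). After 2 weeks of CCl4, 4 fell (Bmp2, Bmp4, Bmp5 and Bmp10) and 1 rose (Id2), with 4.77% of all genes called (2.34% higher, 2.43% lower). After 4 weeks, 5 fell (Bambi, Bmp2, Bmp4, Bmp5 and Id1) and 1 rose (Inhba), with 8.71% of all genes called (4.04% higher, 4.67% lower). Calls rest on limma's adjusted p, under 0.05 by Benjamini-Hochberg over all 22180 genes. The median log2 fold change of the 10 genes was -0.94 in culture, -0.44 at 2 weeks and -0.49 at 4 weeks, against medians over all genes of 0.01, 0 and 0. The cultured and quiescent arrays did not overlap for 9 of the 10 genes, as for 58.2% of all genes. At 2 weeks this held for 7 of the 10, as for 43.5% of all genes, and at 4 weeks for 7 of the 10, as for 48.7%. All 3 comparisons share the quiescent arrays. The 10 genes were chosen with earlier results of these data known. Setting their counts and medians beside those of all genes is therefore no independent test.

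**Figure D1:**
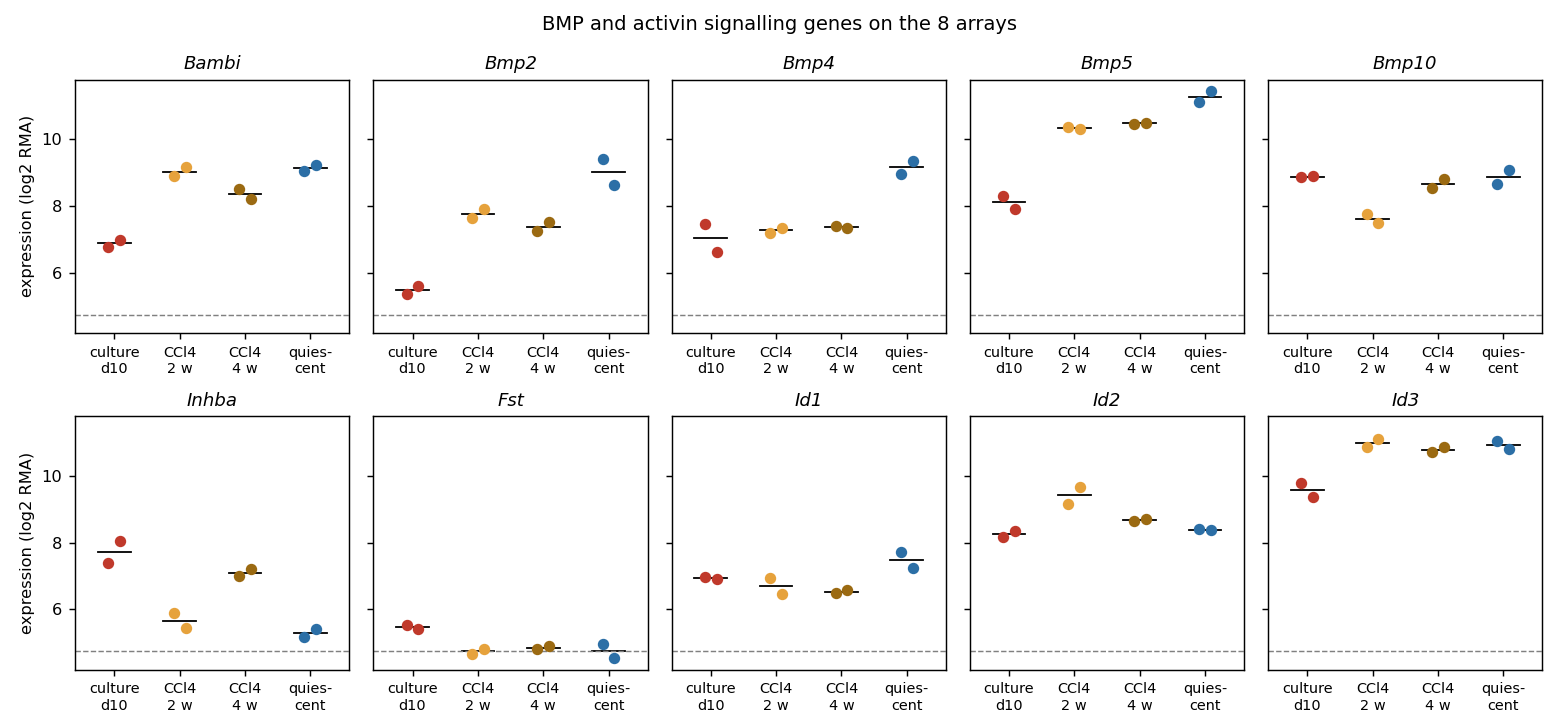
Expression of the 10 genes (log2 RMA, vertical axis) on each array of the 4 groups. Points are arrays, short lines are group means of 2 arrays, and the dashed line is the background guide at 4.75. Bmp2, Bmp4 and Bmp5 are highest on the quiescent arrays, Inhba is highest on the cultured ones, and Bmp10 is lowest at 2 weeks of CCl4.

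Bmp2 encodes a BMP ligand that liver endothelial cells are known to secrete. It stood at 5.36 and 5.61 log2 units in culture, at 7.63 and 7.90 after 2 weeks of CCl4 and at 7.24 and 7.53 after 4 weeks, against 9.40 and 8.62 in quiescent cells. The quiescent arrays were the highest, the cultured ones the lowest, and no 2 groups overlapped. Bmp2 fell by 3.52 ± 0.25 on the log2 scale in culture (SE, adjusted p = 2.02e-05), by 1.24 ± 0.25 at 2 weeks (adjusted p = 0.0279) and by 1.62 ± 0.25 at 4 weeks (adjusted p = 0.00554). The 2-week call was lost in 5 of the 8 fits that left out 1 array, namely without quiescent replicate 1 (adjusted p = 0.0744), either 2-week array (0.2 and 0.0809) or either 4-week array (0.0543). The 4-week call was lost without 4-week replicate 1 (adjusted p = 0.0627). The median sinusoidal endothelial marker stood at 5.45 and 4.81 in culture, at 7.20 and 7.61 at 2 weeks and at 6.40 and 6.72 at 4 weeks, against 9.57 and 8.47 in quiescent cells. Like that median, Bmp2 was higher in quiescent replicate 1 than in replicate 2, and the part of endothelial RNA in its fall was not tested.

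Bmp4 encodes a ligand closely related to BMP2. It stood at 7.45 and 6.63 in culture, at 7.20 and 7.34 at 2 weeks and at 7.40 and 7.34 at 4 weeks, against 8.96 and 9.36 in quiescent cells. All 6 arrays of activated cells lay below both quiescent arrays and overlapped with one another. Bmp4 fell by 2.12 ± 0.26 in culture (adjusted p = 0.000405), by 1.89 ± 0.26 at 2 weeks (adjusted p = 0.00532) and by 1.79 ± 0.26 at 4 weeks (adjusted p = 0.00369). Without 2-week replicate 1 the 2-week call was lost (adjusted p = 0.0611). Between culture and the mean of both CCl4 times the difference was -0.28 ± 0.22 (95% confidence interval -0.78 to 0.22, adjusted p = 0.464), so a difference in either direction was not resolved.

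Bmp5 encodes another BMP ligand, of the same subfamily as BMP6 and BMP7. It stood at 8.31 and 7.91 in culture, at 10.37 and 10.32 at 2 weeks and at 10.47 and 10.49 at 4 weeks, against 11.12 and 11.44 in quiescent cells. The cultured arrays were the lowest and the quiescent ones the highest, with the 4 CCl4 arrays between them. Bmp5 fell by 3.17 ± 0.18 in culture (adjusted p = 6.02e-06), by 0.93 ± 0.18 at 2 weeks (adjusted p = 0.0211) and by 0.80 ± 0.18 at 4 weeks (adjusted p = 0.0263). At 2 weeks Bmp5 was no longer called without either 2-week array (adjusted p = 0.119 and 0.1) or quiescent replicate 2 (0.0639). At 4 weeks the same held without either 4-week array (adjusted p = 0.149 and 0.131) or quiescent replicate 2 (0.0961). The median of 12 quiescent stellate cell markers stood at 6.96 and 6.60 in culture, at 9.51 and 9.73 at 2 weeks and at 9.56 and 9.66 at 4 weeks, against 10.60 and 10.89 in quiescent cells. As for Bmp5, the cultured arrays were the lowest and the quiescent ones the highest, but the 2-week and 4-week medians overlapped, which the Bmp5 values did not.

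Since Bmp4 and Bmp5 fell in all 3 comparisons, the 250 bases before their starts are shown, as RefSeq gives them for build GRCm38.p6. That of Bmp4 lies at chr14:46390670-46390919 on the minus strand and that of Bmp5 at chr9:75775115-75775364 on the plus strand, both written 5′ to 3′ along the gene. Capitals mark any match, on either strand, to the short Smad site GTCT, the GC-rich Smad element GGCGCC, the TEAD element GGAATG, the AP-1 element TGANTCA or the TATA box TATAAA.
Bmp4: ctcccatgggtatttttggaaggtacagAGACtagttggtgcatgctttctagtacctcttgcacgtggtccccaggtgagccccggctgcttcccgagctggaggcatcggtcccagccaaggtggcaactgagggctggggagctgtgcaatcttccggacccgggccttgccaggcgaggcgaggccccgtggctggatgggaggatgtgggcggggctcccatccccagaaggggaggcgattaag
Bmp5: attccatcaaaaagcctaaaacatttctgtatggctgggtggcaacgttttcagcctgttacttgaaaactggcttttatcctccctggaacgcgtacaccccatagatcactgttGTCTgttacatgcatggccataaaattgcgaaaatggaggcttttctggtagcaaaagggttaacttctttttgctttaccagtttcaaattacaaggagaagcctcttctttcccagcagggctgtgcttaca
Each held 1 Smad short site and none of the other 4 motifs. Of 32851 such windows in the table, 82.9% held the short site, 9.59% the GC-rich element, 12.6% the TEAD element, 6.75% the AP-1 element and 12.4% the TATA box. G and C made up 63.2% of the Bmp4 window and 42.8% of the Bmp5 window. None of the marked letters overlapped with another motif.

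Bmp10, whose product signals with BMP9 through endothelial receptors, took another course. It stood at 8.87 and 8.89 in culture, at 7.77 and 7.48 at 2 weeks and at 8.53 and 8.81 at 4 weeks, against 8.66 and 9.09 in quiescent cells. The 2-week arrays lay below the other 6, and both the cultured and the 4-week arrays overlapped with the quiescent ones. Bmp10 fell by 1.25 ± 0.19 at 2 weeks (adjusted p = 0.00814), a call lost without 2-week replicate 2 (adjusted p = 0.0578). In culture the difference from quiescent cells was 0 ± 0.19 (95% confidence interval -0.43 to 0.43, adjusted p = 0.998), and at 4 weeks it was -0.20 ± 0.19 (95% confidence interval -0.63 to 0.22, adjusted p = 0.651). Gdf2, the BMP9 gene, averaged 6.06 ± 0.10 in culture, 10.44 ± 0.06 at 2 weeks and 10.50 ± 0.03 at 4 weeks, against 11.39 ± 0.30 in quiescent cells (SD, n = 2 each). It fell by 5.33 ± 0.17 in culture (adjusted p = 2.15e-07), where Bmp10 did not pass the test.

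Inhba encodes the subunit of activin A. It stood at 7.39 and 8.06 in culture, at 5.88 and 5.45 at 2 weeks and at 6.99 and 7.20 at 4 weeks, against 5.19 and 5.42 in quiescent cells. The cultured and 4-week arrays lay well above the quiescent ones, and the 2-week arrays only just. Inhba rose 5.34-fold in culture (log2 2.42 ± 0.24, adjusted p = 0.000131) and 3.45-fold at 4 weeks (1.79 ± 0.24, adjusted p = 0.00282), both kept in all 8 fits that left out 1 array. At 2 weeks it differed by 0.36 ± 0.24 (adjusted p = 0.532).

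Its RefSeq promoter, shown because Inhba is the ligand gene that rose, lies at chr13:16011601-16011850 of GRCm38.p6 on the plus strand, and capitals mark the same 5 motifs.
Inhba: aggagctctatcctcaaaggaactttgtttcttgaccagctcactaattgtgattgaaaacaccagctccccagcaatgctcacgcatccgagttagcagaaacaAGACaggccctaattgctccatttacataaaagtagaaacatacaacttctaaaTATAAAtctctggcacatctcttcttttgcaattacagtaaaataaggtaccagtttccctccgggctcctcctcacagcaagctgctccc
This window held 1 Smad short site, as AGAC on the strand shown, and 1 match to TATAAA, 91 bases before the start. Of its bases, 43.2% were G or C.

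Fst encodes follistatin, which binds activin and, more weakly, some BMPs. It stood at 5.54 and 5.43 in culture, at 4.68 and 4.81 at 2 weeks and at 4.82 and 4.90 at 4 weeks, against 4.97 and 4.54 in quiescent cells. The cultured arrays lay above the other 6, which sat around the background guide of 4.75, with 1 quiescent and 1 2-week array below it. Fst rose by 0.73 ± 0.17 in culture (adjusted p = 0.0129), and values this near background can understate a fold change. Fits without culture replicate 1 or quiescent replicate 2 did not keep it (adjusted p = 0.0768 and 0.0649). After CCl4 the differences were -0.01 ± 0.17 at 2 weeks and 0.11 ± 0.17 at 4 weeks (adjusted p = 0.988 and 0.824).

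Bambi encodes a membrane protein known in mouse stellate cells as a brake on TGF-beta signalling. It stood at 6.78 and 6.98 in culture, at 8.89 and 9.18 at 2 weeks and at 8.52 and 8.22 at 4 weeks, against 9.05 and 9.22 in quiescent cells. Only the 2-week arrays overlapped with the quiescent ones, and the cultured arrays were the lowest. Bambi fell by 2.26 ± 0.17 in culture and by 0.77 ± 0.17 at 4 weeks (adjusted p = 3e-05 and 0.0275), with -0.11 ± 0.17 at 2 weeks (adjusted p = 0.852). The culture call was kept in all 8 fits that left out 1 array. The 4-week call was lost without either quiescent array (adjusted p = 0.053 and 0.0899) or either 4-week array (0.0691 and 0.187).

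**Figure D2:**
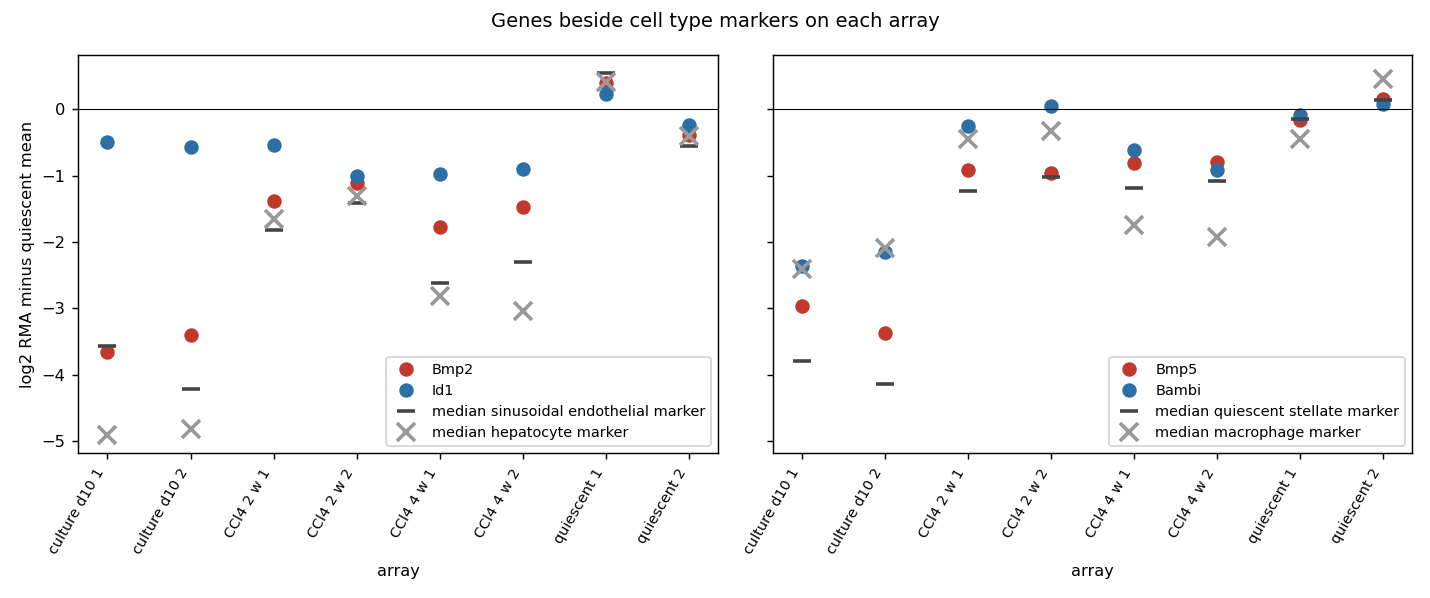
Levels on each array minus the quiescent mean (log2 units, vertical axis) for Bmp2 and Id1 beside the median sinusoidal endothelial and hepatocyte markers (left), and for Bmp5 and Bambi beside the median quiescent stellate and macrophage markers (right). Bmp2 and the endothelial median are both lowest in culture and higher in quiescent replicate 1 than in replicate 2, while the cultured Id1 values overlap with those at 2 weeks.

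The Id genes encode helix-loop-helix proteins without a DNA-binding region, which hold other such factors off DNA and are standard readouts of BMP signalling. The 3 genes did not move together. Id1 stood at 6.98 and 6.91 in culture, at 6.93 and 6.47 at 2 weeks and at 6.50 and 6.57 at 4 weeks, against 7.71 and 7.24 in quiescent cells. Both quiescent arrays lay above the other 6, and quiescent replicate 2 only a little above the cultured ones. Id1 fell by 0.94 ± 0.20 at 4 weeks (adjusted p = 0.023), a call lost without either 4-week array (0.145 and 0.111) or quiescent replicate 1 (0.0994). It differed by -0.53 ± 0.20 in culture and by -0.77 ± 0.20 at 2 weeks (adjusted p = 0.0966 and 0.0698), and both passed without quiescent replicate 2 (adjusted p = 0.0331 and 0.0269). Like the endothelial and hepatocyte medians, Id1 was higher in quiescent replicate 1 than in replicate 2. Both medians were lowest in culture (5.45 and 4.81 for endothelial markers, 4.68 and 4.78 for hepatocyte markers). Mean Id1 was instead highest in culture among the activated groups (6.94, against 6.7 at 2 weeks and 6.53 at 4 weeks). The part of these other cells in the fall of Id1 was not tested.

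Id2 stood at 8.16 and 8.36 in culture, at 9.17 and 9.67 at 2 weeks and at 8.65 and 8.72 at 4 weeks, against 8.41 and 8.38 in quiescent cells. The 2-week arrays were the highest, and the cultured and quiescent arrays came close to each other. Id2 rose 2.03-fold at 2 weeks (log2 1.02 ± 0.18, adjusted p = 0.0156), a call lost without 2-week replicate 2 (adjusted p = 0.0679). In culture it differed by -0.14 ± 0.18 and at 4 weeks by 0.29 ± 0.18 (adjusted p = 0.683 and 0.457).

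Id3 stood at 9.79 and 9.37 in culture, at 10.87 and 11.12 at 2 weeks and at 10.71 and 10.87 at 4 weeks, against 11.05 and 10.80 in quiescent cells. The arrays of each CCl4 time overlapped with the quiescent ones, and both cultured arrays lay below all 6 arrays of unseeded cells. Id3 fell by 1.34 ± 0.18 in culture (adjusted p = 0.000851), in all 8 fits that left out 1 array. After CCl4 it differed by 0.07 ± 0.18 at 2 weeks (95% confidence interval -0.35 to 0.49) and by -0.13 ± 0.18 at 4 weeks (-0.55 to 0.29), with adjusted p = 0.909 and 0.794.

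Id2 and Id3 took different courses, so their RefSeq promoters are shown side by side. That of Id2 lies at chr12:25096093-25096342 on the minus strand and that of Id3 at chr4:136143572-136143821 on the plus strand of GRCm38.p6, with the same 5 motifs in capitals.
Id2: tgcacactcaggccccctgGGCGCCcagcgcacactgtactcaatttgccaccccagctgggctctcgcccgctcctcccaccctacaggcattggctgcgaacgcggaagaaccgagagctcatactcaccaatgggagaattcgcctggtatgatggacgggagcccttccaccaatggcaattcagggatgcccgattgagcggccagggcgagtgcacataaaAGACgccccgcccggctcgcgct
Id3: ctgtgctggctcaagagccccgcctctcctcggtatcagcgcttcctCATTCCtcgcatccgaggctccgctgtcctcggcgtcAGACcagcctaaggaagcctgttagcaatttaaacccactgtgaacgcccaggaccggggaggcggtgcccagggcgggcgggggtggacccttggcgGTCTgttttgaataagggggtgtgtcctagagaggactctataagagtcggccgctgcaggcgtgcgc
The Id2 window held 1 GC-rich Smad element, GGCGCC, and 1 Smad short site. The Id3 window held 2 Smad short sites and 1 TEAD element, as CATTCC on the strand shown. Both windows had 62.8% G and C. These letters are matches only, and no binding was measured.

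**Figure D3:**
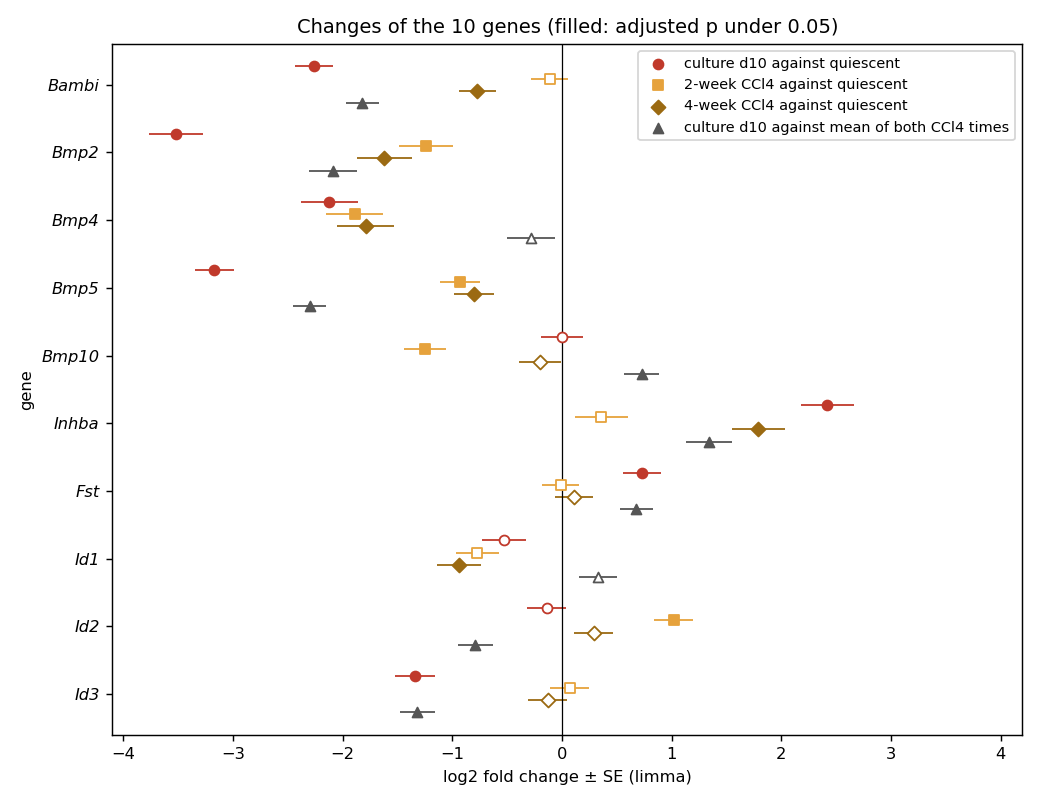
Log2 fold changes with standard errors (horizontal axis) of the 10 genes for culture and each CCl4 time against quiescent cells, and for culture set against the averaged CCl4 times. Filled symbols passed an adjusted p of 0.05. Bmp2, Bmp4 and Bmp5 are filled left of 0 in all 3 comparisons against quiescent cells, and Inhba is filled right of 0 in culture and at 4 weeks.

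Cultured and CCl4 cells were then compared directly, to ask whether plastic and injured liver gave the same levels. Against the mean of both CCl4 times, 5 of the 10 genes were lower in culture and 3 were higher, where 21.3% of all genes were called (12.6% higher, 8.72% lower). The cultured arrays did not overlap with the 4 CCl4 arrays for 8 of the 10, as for 39.9% of all genes. The lower ones were Bmp5 (-2.30 ± 0.15, adjusted p = 1.43e-05), Bmp2 (-2.09 ± 0.22, adjusted p = 0.000201), Bambi (-1.82 ± 0.15, adjusted p = 5.11e-05), Id3 (-1.32 ± 0.16, adjusted p = 0.000493) and Id2 (-0.79 ± 0.16, adjusted p = 0.0064). Inhba (1.34 ± 0.21, adjusted p = 0.00177), Bmp10 (0.73 ± 0.16, adjusted p = 0.0124) and Fst (0.68 ± 0.15, adjusted p = 0.00978) were higher. For Bmp10, Inhba and Id2 the CCl4 mean joins unlike times, with the 2-week level further from culture. Mean Bmp10 was 8.88 in culture, 7.63 at 2 weeks and 8.67 at 4 weeks. Inhba averaged 7.72, 5.67 and 7.09 and Id2 8.26, 9.42 and 8.68 in the same order. Culture was not tested against either time alone. Id1 differed by 0.33 ± 0.17 (95% confidence interval -0.07 to 0.72, adjusted p = 0.255). Without culture replicate 1 the calls of Bmp10 (adjusted p = 0.0735), Fst (0.082) and Id2 (0.0678) were lost, and without culture replicate 2 those of Bmp10 (0.0855) and Fst (0.0512). Culture, the lower RNA of some other liver cells and any valproic acid cannot be told apart here.

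The later and the earlier CCl4 time differed less. None of the 10 genes passed in limma at 4 against 2 weeks, where 0.0857% of all genes were called. At an unadjusted p under 0.05 there were 4 of the 10, as for 8.16% of all genes. These were Inhba (1.43 ± 0.24, adjusted p = 0.103), Bmp10 (1.05 ± 0.19, adjusted p = 0.113), Id2 (-0.74 ± 0.18, adjusted p = 0.241) and Bambi (-0.66 ± 0.17, adjusted p = 0.266). Their 4-week arrays did not overlap with their 2-week arrays, which held for 39% of all genes and for 8 of the 10. Bmp10 passed without either quiescent array (adjusted p = 0.0459), and Inhba passed where only the 4 CCl4 arrays were fitted (adjusted p = 0.0321).

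The genes of the pathway, the 10 above included, were counted in lists by role, to be read against the shares of all genes called. These were 12.9% higher and 10.3% lower in culture, 2.34% and 2.43% at 2 weeks, and 4.04% and 4.67% at 4 weeks. The 10 were chosen with earlier results of these data known, and their calls in a list repeat those above. Of 15 BMP-type ligand genes, 5 fell and 1 rose in culture, 5 fell at 2 weeks and 4 at 4 weeks, with 0 rises after CCl4 in limma (1 at each time without quiescent replicate 2). Their median log2 fold changes were -0.09, -0.15 and -0.19. After CCl4 every ligand fall but that of Gdf2 was of the 10 genes. Besides Bmp2, Bmp4 and Bmp5, the falls in culture were Gdf2 and Gdf10, a BMP3-related gene (-5.69 ± 0.20, adjusted p = 3.84e-07), and the rise was Gdf6 (1.89 ± 0.36, adjusted p = 0.00523). Gdf2 also fell by 0.95 ± 0.17 at 2 weeks and by 0.89 ± 0.17 at 4 weeks (adjusted p = 0.0148 and 0.0123), whereas Gdf10 differed by -0.03 ± 0.20 and -0.16 ± 0.20 (adjusted p = 0.967 and 0.758). Both Gdf2 calls after CCl4 were lost without either array of that time (adjusted p = 0.113 and 0.0629 at 2 weeks, 0.0958 and 0.0767 at 4 weeks). Against the CCl4 mean, cultured cells were lower in Gdf10 (-5.59 ± 0.17, adjusted p = 1.67e-07) and Gdf2 (-4.41 ± 0.14, adjusted p = 2.63e-07). Without either 2-week array only 1 ligand fell at 2 weeks, and without 4-week replicate 1 or 2 there were 1 and 2 falls at 4 weeks. Bmp6, the other endothelial ligand of the hepcidin pathway, differed by -0.59 ± 0.27 in culture (adjusted p = 0.158).

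Among 9 measured activin, inhibin and nodal-type ligand genes, 2 rose and 1 fell in culture, 1 rose at 2 weeks and 1 at 4 weeks. Of all genes, 23.2%, 4.77% and 8.71% were called in these comparisons, so 3 of 9 in culture lies near the share of all genes. Beside Inhba, Gdf11 rose by 1.05 ± 0.18 in culture and 1.11 ± 0.18 at 2 weeks (adjusted p = 0.0028 and 0.0111), the 2-week call being lost without either 2-week array (adjusted p = 0.0973 and 0.0524). Inhbb, the subunit of activin B, fell in culture (-0.98 ± 0.20, adjusted p = 0.00775), which was lost without culture replicate 1 (adjusted p = 0.0618). Without quiescent replicate 2 the list gave 3 falls in culture, 2 at 2 weeks and 1 at 4 weeks.

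Receptor genes fell where they moved. Of 14 measured receptors and co-receptors, 6 fell in culture, 2 at 2 weeks and 2 at 4 weeks, and none rose in limma (1 did in culture without culture replicate 1), with medians of -0.49, -0.09 and -0.21. Of all genes, 10.3%, 2.43% and 4.67% fell. The type II activin receptor gene Acvr2a fell by 1.80 ± 0.21 in culture (adjusted p = 0.000302), by 1.27 ± 0.21 at 2 weeks (adjusted p = 0.0111) and by 1.27 ± 0.21 at 4 weeks (adjusted p = 0.00679). Eng, the co-receptor endoglin, fell by 0.91 ± 0.14, 0.68 ± 0.14 and 0.65 ± 0.14 (adjusted p = 0.0017, 0.0315 and 0.0255). The type I receptor gene Bmpr1a fell by 0.77 ± 0.17 in culture (adjusted p = 0.0102). The Acvr2a calls were lost without 2-week replicate 1 (adjusted p = 0.103) or, at 4 weeks, either array of that time (0.0584 and 0.0576). Those of Eng were lost in 7 of the 8 fits at 2 weeks (adjusted p 0.0581 to 0.188) and in 3 at 4 weeks (0.0903 to 0.174), and that of Bmpr1a without culture replicate 2 (0.0801) or quiescent replicate 2 (0.0533). The 6 falls in culture became 2 without culture replicate 2, those at 2 weeks 0 without 2-week replicate 1 and 1 without 2-week replicate 2 or any culture or 4-week array, and those at 4 weeks 0 without either 4-week array. Against the CCl4 mean, Bmpr1a (-0.81 ± 0.15), Acvr1 (-0.84 ± 0.16) and Acvr1b (-1.07 ± 0.24) were lower in culture (adjusted p = 0.00417, 0.00468 and 0.0119), and each call was lost without culture replicate 2 (0.0559, 0.0625 and 0.133).

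Secreted antagonists and modulators rose where they passed against quiescent cells. Of 16 measured, 7 rose in culture, 3 at 2 weeks and 4 at 4 weeks, and 0 fell, with medians of 0.20, 0.05 and 0.04. Of all genes, 12.9%, 2.34% and 4.04% rose. Fstl3, a follistatin-like activin trap, rose by 3.70 ± 0.34 in culture (adjusted p = 8.61e-05), 1.81 ± 0.34 at 2 weeks (adjusted p = 0.0202) and 2.67 ± 0.34 at 4 weeks (adjusted p = 0.00228). Bmper, a secreted BMP-binding modulator, rose by 2.65 ± 0.36 in culture and 2.67 ± 0.36 at 4 weeks (adjusted p = 0.000817 and 0.00298). Crim1, which tethers BMPs at the membrane, rose in culture (1.81 ± 0.20, adjusted p = 0.000279), and the DAN-family antagonist Nbl1 rose at 2 weeks (0.82 ± 0.16, adjusted p = 0.0215) and 4 weeks (1.49 ± 0.16, adjusted p = 0.000833). Fstl1 rose at 2 weeks (1.45 ± 0.27, adjusted p = 0.0187). Without either 2-week array the calls of Fstl3 (0.171 and 0.0618), Nbl1 (0.138 and 0.0804) and Fstl1 (0.135 and 0.0866) at 2 weeks were lost, which left 0 rises. Nbl1 at 2 weeks was also lost without quiescent replicate 2 (adjusted p = 0.059). In culture, 1 member fell without culture replicate 1 or either 2-week array. Some portal fibroblast and smooth muscle markers also rose at both CCl4 times, as given above. Of the smooth muscle markers, 2 fell at 2 weeks and 1 at 4 weeks. Their list shares Des and Tagln with the stellate cell lists, so it is not one of other cells alone. The part of such cells in the antagonist rises was not tested. Against the CCl4 mean, Crim1 (2.31 ± 0.18, adjusted p = 3.46e-05), the BMP antagonist Grem1 (1.07 ± 0.13, adjusted p = 0.00043) and Fstl3 (1.46 ± 0.29, adjusted p = 0.00732) were higher in culture, and Kcp was lower (-0.53 ± 0.16, adjusted p = 0.0402). Without culture replicate 2 the calls of Fstl3 (0.0744) and Kcp (0.325) were lost, and Kcp was also lost without 2-week replicate 2 (0.0997) or either 4-week array (0.101 and 0.0904).

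**Figure D4:**
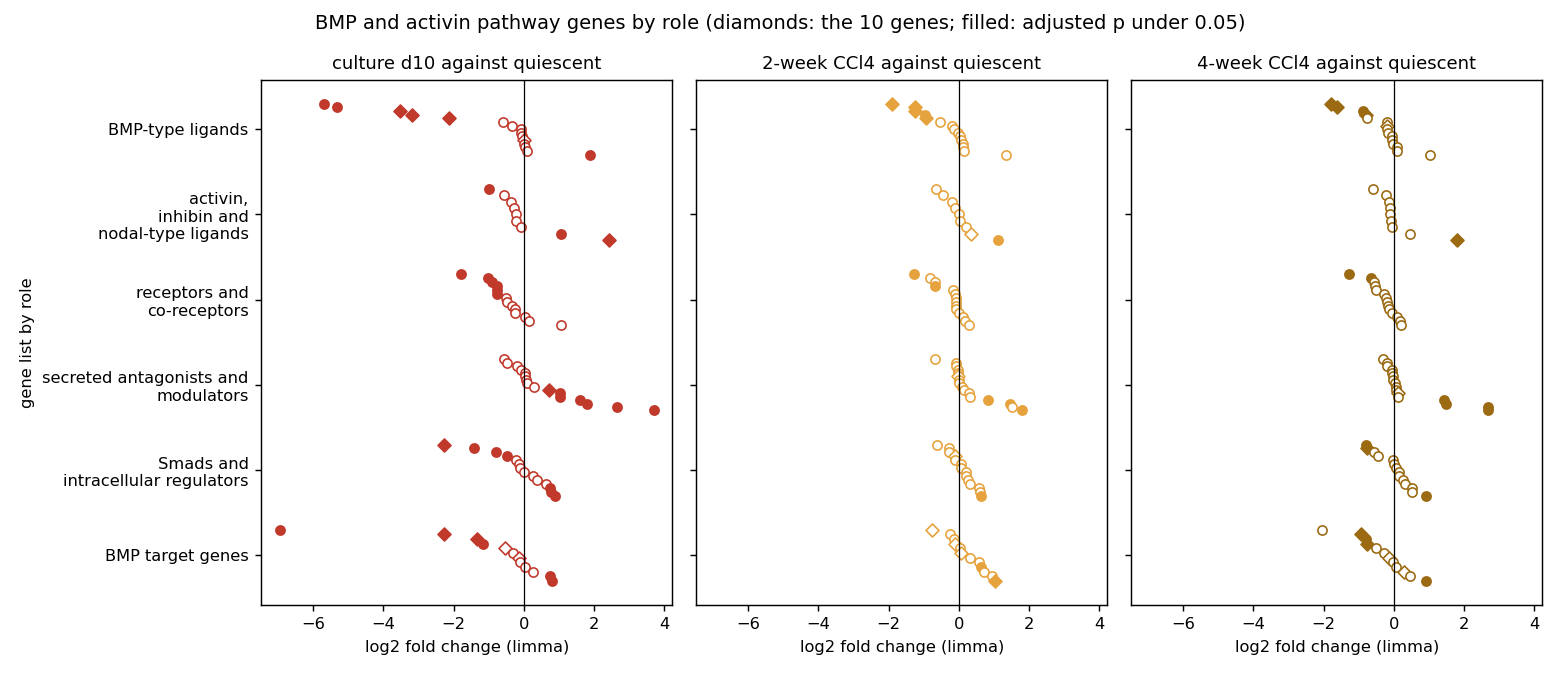
Log2 fold changes (horizontal axis) of the measured pathway genes, by role, in culture and at 2 and 4 weeks of CCl4, each against quiescent cells. Each point is 1 gene, diamonds are the 10 genes, filled points passed an adjusted p of 0.05, and a gene can stand in 2 lists. Filled receptor genes lie left of 0 and filled antagonist genes right of 0 in all 3 panels.

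Smads and intracellular regulators went both ways, with 3 rises and 4 falls of 14 in culture, 1 rise at 2 weeks, and 1 rise and 2 falls at 4 weeks, where 23.2%, 4.77% and 8.71% of all genes were called. In culture Smad5, a BMP-activated Smad, fell (-1.41 ± 0.15, adjusted p = 0.000193) and so did Ski, a Smad corepressor (-0.80 ± 0.17, adjusted p = 0.00807), and Smad3 (-0.47 ± 0.15, adjusted p = 0.048), while Smad9 (0.75 ± 0.14, adjusted p = 0.00388) and the ubiquitin ligase genes Smurf2 (0.77 ± 0.14, adjusted p = 0.00459) and Smurf1 (0.89 ± 0.19, adjusted p = 0.00846) rose. The Smad3 call was lost in all 8 fits that left out 1 array (the adjusted p then being 0.0522 to 0.208), that of Ski without culture replicate 1 (0.0506) and that of Smurf1 without culture replicate 2 (0.0586). Without culture replicate 1 there were 2 falls in culture. At 4 weeks the 2 falls became 0 without quiescent replicate 1 or either 4-week array and 1 without quiescent replicate 2, and the rise became 0 without 4-week replicate 1. The inhibitory Smads parted at 4 weeks, where Smad7 rose (0.93 ± 0.17, adjusted p = 0.0115) and Smad6, the one more selective for BMP receptors, fell (-0.79 ± 0.16, adjusted p = 0.0177). Smad7 lost its call without 4-week replicate 1 (adjusted p = 0.101), and Smad6 without quiescent replicate 1 (0.0612) or either 4-week array (0.124 and 0.0915). Smad9 rose at 2 weeks (0.64 ± 0.14, adjusted p = 0.0345), lost in all 8 such fits (0.0618 to 0.143). Against the CCl4 mean, Smad5 (-0.82 ± 0.13, adjusted p = 0.00194), Smad3 (-0.46 ± 0.13, adjusted p = 0.0327) and Smad7 (-0.51 ± 0.15, adjusted p = 0.0396) were lower in culture. Smurf2 (0.66 ± 0.13, adjusted p = 0.00538), Smad9 (0.40 ± 0.12, adjusted p = 0.0421) and Smurf1 (0.53 ± 0.16, adjusted p = 0.0499) were higher. Of these, Smad5 was kept in all 8 fits, Smurf2 was lost without culture replicate 2 (0.0685), and Smad3, Smad7, Smad9 and Smurf1 were lost in 5, 5, 5 and 7 of the 8 (adjusted p 0.0504 to 0.254).

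The BMP target genes gave no common direction against quiescent cells. The 12 measured include Id1, Id2, Id3 and Bambi. Of the 12, 6 were lower in culture than the CCl4 mean and 2 higher, against 8.72% and 12.6% of all genes. Both of these counts became smaller in some fits that left out 1 array. Against quiescent cells, 2 rose and 4 fell in culture, 2 rose at 2 weeks, and 1 rose and 3 fell at 4 weeks. In these comparisons 23.2%, 4.77% and 8.71% of all genes were called. In culture the falls beside Bambi and Id3 were Hamp, the hepcidin gene of hepatocytes (-6.94 ± 0.87, adjusted p = 0.00051), and Hey1, a Notch and BMP target (-1.16 ± 0.26, adjusted p = 0.0115), while Msx2 (0.80 ± 0.17, adjusted p = 0.00896) and Smad9 rose. Hey1 lost its call without culture replicate 1 (0.0688) or quiescent replicate 2 (0.0582), and Msx2 without culture replicate 2 (0.0693). Like 11 of the 12 hepatocyte markers, Hamp fell in culture. It averaged 10.42 ± 2.53 in quiescent cells (SD, n = 2), where the median hepatocyte marker stood at 10.0 and 9.18. The part of hepatocyte RNA in the fall of Hamp was not tested. Without quiescent replicate 1 or either 4-week array there were 0 falls at 4 weeks, and without quiescent replicate 2 there were 2 falls at 2 weeks. The 2 rises at 2 weeks became 0 without 2-week replicate 2 and 1 without either culture or either 4-week array, and the rise at 4 weeks became 0 without 4-week replicate 1. In culture 1 rise was left without culture replicate 2. Against the CCl4 mean, Hey1 (-1.86 ± 0.23, adjusted p = 0.00049) and Hamp (-5.86 ± 0.75, adjusted p = 0.000667) were lower in culture and Msx2 higher (0.79 ± 0.15, adjusted p = 0.00521), the Msx2 call being lost without culture replicate 2 (0.0648).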

How the data were processed

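The authors deposited log2 expression values, which per the submitters' processing notes come from RMA run in the Affymetrix Expression Console. That method subtracts background, gives all arrays the same distribution and combines the probes of a set, so a shift of most genes at once is hidden. Array medians ran from 4.63 to 4.72 log2 units over 41345 probe sets, and the number of arrays limits the precision. The annotation gave 1 symbol to 23521 probe sets, several to 1814 and none used here to 16010. The probe set with the highest mean was used where a gene had several, which left 22180 genes.

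One fit of all 8 arrays in 4 groups used limma 3.58.1 (R 4.3.3) with lmFit and eBayes, two-sided, with 4 residual and 4.75 prior degrees of freedom. It was tested on simulated data. Because the labels do not name separate animals or cultures, p-values reflect no more than how these samples spread, possibly for technical reasons. An exact permutation test of 2 against 2 arrays cannot go below 0.333 and was not used. The members and lists were chosen with earlier results of these data known. Named beside the 10 genes were up to 3 rises and 3 falls per list and comparison, by smallest p. Members of the lists without a probe set of their own were not analysed here. Promoters are RefSeq's, of GRCm38.p6, and those of 6 of the 10 genes were searched. None was found for Bmp2, Fst and Id1, and that of Bambi was left out.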

Additional observations from a re-analysis of the deposited data

How the results depend on the processing

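Of the 26 calls on the 10 genes, 13 were kept under all 9 other settings and all 8 fits that left out 1 array, and 0 changed direction. Over all 50 results of the 10 genes, 787 of 845 such values kept their direction and their side of the threshold, 41 lost a call, 6 gained one and 11 changed sign, the last only for differences that had not passed. These were Bmp10 in culture (0.22 to -0.21 when 1 array was left out) and at 4 weeks (-0.42 to 0.01), Bambi at 2 weeks (-0.25 to 0.04), and Fst at 2 weeks (-0.22 to 0.2) and at 4 weeks (0.32 to -0.11). The others were Id3 at 2 weeks (-0.05 to 0.2), Id1 at 4 against 2 weeks (-0.4 to 0.06) and Bmp4 in culture against CCl4 (-0.69 to 0.13).

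With only the groups compared in the fit, 372 genes were called at 2 weeks in place of 1058, 1205 at 4 weeks in place of 1932 and 82 at 4 against 2 weeks in place of 19. Of the 10 genes, 2 were then called at 2 weeks in place of 5, and 1 in place of 0 at 4 against 2 weeks. With all 41345 probe sets tested, 441 genes were called at 2 weeks and 0 at 4 against 2 weeks, with 2 of the 10 at 2 weeks and 3 in place of 6 at 4 weeks. Array weights gave 33 genes at 4 against 2 weeks. Fst was not tested above a mean of 5 log2 units. In these fits the cause was not tested beyond the fewer arrays or the larger number of features.

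Leaving out 1 array gave 3505 to 4962 genes in culture, 260 to 1430 at 2 weeks, 652 to 2113 at 4 weeks, 0 to 85 at 4 against 2 weeks and 2846 to 5225 in culture against CCl4. Of the 10 genes it left 6 to 7 called in culture, 1 to 5 at 2 weeks, 2 to 6 at 4 weeks, 0 to 1 at 4 against 2 weeks and 5 to 8 in culture against CCl4. A lone array was assumed to vary like the other groups.

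Replicate numbers are shared between groups, but differences between replicates 1 and 2 correlated at -0.04 to 0.07 across genes between groups, so the numbers were not taken to pair the samples. With the replicate block, 9 genes were called at 4 against 2 weeks in place of 19.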

Other observations

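For each of the 10 genes, the 3 genes with the most similar course over the 8 arrays were taken by Pearson's r, among 11090 genes at or above the median SD. With 8 arrays in 4 groups such values come high for many genes, and the arrays share their normalization, so they describe these arrays only. Among the ligands, the nearest were Gpihbp1, Rev3l and Hpgd to Bmp2 (0.998, 0.997 and 0.994), Lmbrd1, Zscan21 and Omd to Bmp4 (0.991, 0.982 and 0.981), Ets2, Tpbgl and Acap1 to Bmp5 (0.996, 0.996 and 0.995) and Ddx51, Syde1 and Eogt to Bmp10 (0.98, 0.931 and 0.925). Gpihbp1, the nearest to Bmp2, encodes the lipoprotein lipase anchor of capillary endothelium. The nearest to the activin genes were Pvt1, Eif3d and Utp20 to Inhba (0.99, 0.989 and 0.978) and Ccdc58, Prps1 and C130060C02Rik to Fst (0.993, 0.983 and 0.981). For the pseudoreceptor they were Nr1h5, Ttr and Fabp1 to Bambi (0.991, 0.99 and 0.989), of which Ttr and Fabp1 are hepatocyte genes. For the targets they were Zfp563, Brcc3 and Smim4 to Id1 (0.982, 0.981 and 0.967), Tmem95, Gm5 and Arel1 to Id2 (0.955, 0.952 and 0.947) and Maf, Dab2 and Cxcl9 to Id3 (0.992, 0.986 and 0.986). No pair of the 10 genes named each other.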
